A study of Mus musculus with 12 samples.

Results

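Progenitors of the adult mouse dentate gyrus were compared with the stem cells of the same niche across all genes of the deposited count table. The comparison took the 4 progenitor and the 4 stem cell libraries, 8 of the 12 libraries of the series, and the 15427 of 50600 genes that had at least 10 counts in at least 4 of these 8 libraries. All cells came from Nestin-GFP mice of 6 to 9 weeks, in which regulatory sequence of the nestin gene drives green fluorescent protein (GFP) in neural stem cells and their early progeny. No other allele or experimental treatment was given for either cell type, both of which therefore carried the reporter. According to the study's methods, mice were anaesthetized with ketamine and xylazine and perfused. The tissue was then cut up, digested with warm papain, dispase and DNase, and triturated before staining. The study used CD31, CD45, O1 and O4 as markers of endothelial, microglial and oligodendroglial cells. Live cells without staining for them were sorted on GFP and on GLAST, a glutamate transporter at the surface of astrocytes and stem cells. Stem cells were positive for both and progenitors for GFP alone, and each library was made from 50 cells. The study called the libraries biological replicates and wrote that a single mouse brain can suffice for each, while its labels and methods do not tie libraries to mice. The p-values below therefore set each difference against the variation between these libraries, which need not be that between mice. The stem cell columns are numbered 1 to 4, whereas the progenitor columns carry no number and are called a to d.

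Stem cells of the dentate gyrus are radial glia-like cells that share much of their gene expression with astrocytes and divide rarely. Their daughters, the intermediate progenitors, multiply for a few rounds, leave the cell cycle and become neuroblasts and then granule neurons, driven by a sequence of transcription factors that includes Neurod1 and Prox1. Oligodendrocyte precursors, marked by Pdgfra and Cspg4, divide in the same tissue and form a separate glial lineage.

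Between the 2 cell types, 763 genes (4.95% of those tested) were higher and 564 genes (3.66%) were lower in progenitors, by edgeR's quasi-likelihood test with a Benjamini-Hochberg adjusted p under 0.05. The median log2 fold change over all tested genes was 0.04. The genes called in the 2 directions were not alike. Those higher in progenitors had a median log2 fold change of 5.83 (quartiles 2.56 and 8.48), and 343 of them had at most 3 counts in each stem cell library, 179 with no count at all. Those lower in progenitors had a median of -1.33 (quartiles -1.63 and -1.04), and 554 of the 564 (98.2%) had at least 10 counts in all 8 libraries, against 246 of the 763 (32.2%). The values of 2985 genes (19.3%) did not overlap between the cell types, 1806 higher and 1179 lower in progenitors. Further, 352 genes, 281 of them protein coding, had at least 10 counts in every progenitor library and at most 3 in each stem cell library, while 1 gene, Gm43290, showed the opposite. Leaving out progenitor b, c or d lowered the number of genes lower in progenitors to 345, 345 and 298. When the test was restricted to the 9773 genes that reached 10 counts in each of the 8, 470 were higher and 597 lower, so that 44.0% of the calls were higher in progenitors, against 57.5% in the main test. Since these are pools of sorted cells, fewer cells of a kind and less RNA per cell cannot be told apart.

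**Figure D1:**
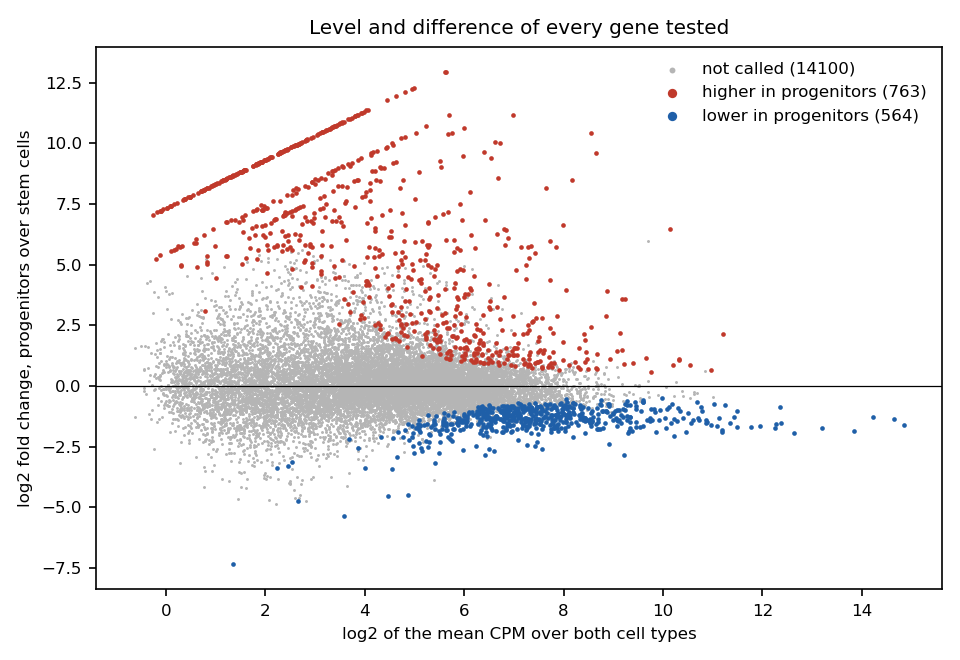
Level and difference of each of the 15427 genes tested, with the log2 of the mean CPM (counts per 1000000 counts, scaled by edgeR) over both cell types on the x axis and the log2 fold change of progenitors over stem cells on the y axis; red and blue points are the 763 genes called higher and the 564 called lower in progenitors. The higher calls spread up to the straight upper edge formed by genes with no count in stem cells, whose fitted values depend on a small added count, while most lower calls lie between -1 and -2 at medium and high levels.

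Total counts on genes were between 9041498 and 12535028 in progenitors and between 5031166 and 10435711 in stem cells, and levels are given as CPM, the counts per 1000000 counts of a library after scaling by the TMM factors of edgeR. Transcripts of the genes behind the sort followed the gates only in part. The gates themselves used GLAST protein at the cell surface and GFP fluorescence, which transcript counts do not measure. Slc1a3, which encodes GLAST, had 3171.8, 2180.1, 3364.5 and 2342.0 CPM in progenitors a to d and 8848.2, 6815.7, 9192.0 and 6769.4 CPM in stem cells 1 to 4 (log2 fold change -1.54, standard error 0.18, edgeR adjusted p = 0.00118). The progenitors were below every stem cell library but were not free of the transcript. Nes, which encodes nestin, did not reach 10 counts in 4 libraries and was not tested, with 517 counts over the progenitor libraries and 4 over the stem cell libraries. At least 1 progenitor library therefore held fewer than 10 counts of Nes. Transcripts of the male-specific gene Ddx3y (31.7 to 90.5 CPM) and of Xist, which is expressed from the inactive X of females (58.02 to 139.8 CPM), were both present in all 8 libraries, although a male or a female alone is known to express just the former or the latter, and none of the 6 sex-linked genes tested passed the edgeR test, while 3 had an unadjusted p under 0.05 and 1 was called by DESeq2.

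Gene classes were described with 45 lists of genes, by the number of tested members called in each direction and the median log2 fold change, beside the shares of 4.95% and 3.66% over all genes. Some members passed the count filter through the progenitor libraries alone and had to differ. For lists with higher calls, the number of members with fewer than 10 counts in every stem cell library is therefore given where it is above 1. For part of these lists, a second median covers the members with at least 10 counts in all 8 libraries. It comes from the test restricted to such genes, in which the median over all genes was -0.01. A list without a second median can still depend on the filter. Beside a statement that no member was called, the number with an unadjusted p under 0.05 and the number called by DESeq2 are given. Genes named only as further members of a list are examples chosen after their values were seen.

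**Figure D2:**
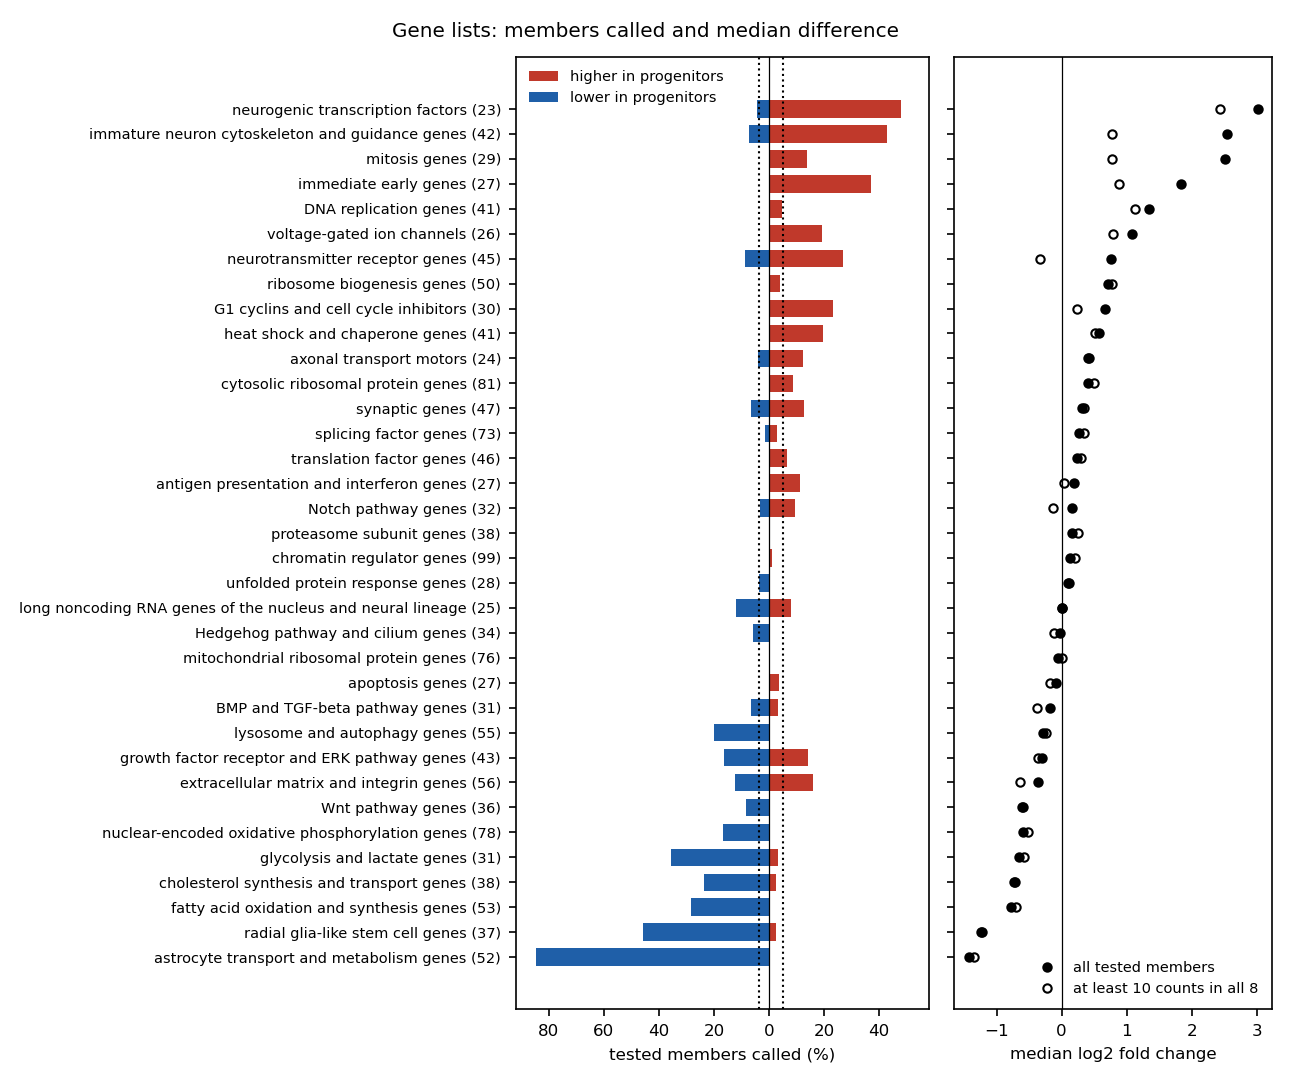
Left, percentage of the tested members of each pathway list called higher (red, to the right) or lower (blue, to the left) in progenitors, with the number tested in parentheses and dotted lines at 4.95% and 3.66%, the shares over all genes; right, median log2 fold change over the tested members (filled) and over those with at least 10 counts in all 8 libraries (open). Neurogenic, immature neuron, mitosis and immediate early lists lie at the top and the astrocyte, radial glia and lipid lists at the bottom, and the open circles of several upper lists lie nearer to 0 than the filled ones.

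Genes of the neuronal lineage were higher in progenitors. Of 32 neurogenic transcription factors listed, 23 were tested, 11 were higher and 1 was lower, with a median log2 fold change of 3.01 (2.43 among members that reached 10 counts in all 8, and 4 of the tested members had fewer than 10 counts in every stem cell library). Neurod1, a basic helix-loop-helix factor needed for granule cell maturation, had 200.2, 310.6, 85.96 and 250.5 CPM in progenitors a to d and 0.308, 0.2611, 0.1243 and 0 CPM in stem cells 1 to 4 (log2 fold change 10.0, standard error 0.64, edgeR adjusted p = 5.6e-05). The stem cell libraries together held 6 counts of it. Sox11, a SOX factor of immature neurons, was at 458.0, 578.7, 336.2 and 435.1 CPM in progenitors and at 0.5133, 9.923, 5.346 and 17.84 CPM in stem cells (5.74, standard error 0.79, edgeR adjusted p = 0.00247). Prox1, which specifies granule cell identity, was at 130.2 to 184.0 CPM against 7.832 to 23.92 CPM (3.25, standard error 0.38, edgeR adjusted p = 0.00112), and Zbtb18, a transcriptional repressor of the neuronal lineage, at 133.8 to 269.7 CPM against 8.918 to 29.77 CPM (3.65, standard error 0.41, edgeR adjusted p = 0.000975). In these 4 genes, every progenitor library exceeded every stem cell library. Myt1l, a repressor of non-neuronal genes, was also higher (3.51). Eomes, the factor that marks intermediate progenitors, did not pass the test, with 18.75 ± 10.44 CPM in progenitors and 1.337 ± 2.591 CPM in stem cells (SD, n = 4 each; log2 fold change 3.79, standard error 1.57, edgeR adjusted p = 0.195). Nor did Neurod2 (5.38, adjusted p = 0.0577) or Sox4 (2.64, 0.0761) in the same test. The lower call, Klf7 (-0.79), was lost whichever of the 8 libraries was left out.

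Cytoskeletal and guidance genes of immature neurons were mostly higher where they were called. All 42 listed genes were tested, 18 were higher and 3 lower, with a median of 2.54 (0.77 among members that reached 10 counts in all 8, 5 members having fewer than 10 counts in every stem cell library). Summed over the list, progenitor libraries held 9975.7 to 14044.2 CPM and stem cell libraries 5738.9 to 6691.5 CPM. Crmp1, a collapsin response mediator protein of growing axons, had 195.1, 189.4, 170.1 and 225.8 CPM in progenitors against 0.1027, 0, 0.1243 and 0.5574 CPM in stem cells (10.06, standard error 0.56, edgeR adjusted p = 2.63e-05). Stmn1, a protein that destabilizes microtubules, was detected in both cell types, at 1354.8, 1416.3, 601.5 and 1070.8 CPM against 57.38, 96.62, 147.6 and 62.61 CPM (3.58, standard error 0.38, edgeR adjusted p = 0.000802). Tuba1a, the main alpha-tubulin of young neurons, had 2814.6 to 4544.4 CPM against 651.9 to 1098.8 CPM (2.13, standard error 0.21, edgeR adjusted p = 0.000559). The libraries of the 2 cell types were separate for all of them. Dcx, the neuroblast microtubule protein, reached 173.3 to 299.3 CPM in progenitors, while 3 stem cell libraries lay below 1 CPM and stem 1 had 8.828 CPM (6.42, standard error 1.05, edgeR adjusted p = 0.00542). Marcksl1 (4.38), Cd24a (9.62), Stmn3 (2.89) and Dpysl3 (3.40) passed the test with each library left out in turn. L1cam, an adhesion molecule of axons, had no count in stem cells and was at least 293.7-fold higher, taking the floor of 3 counts over the 4 stem cell libraries. This value and those given below as at least so many fold rest on pooled counts alone. They leave out the spread between libraries and loss of transcripts in preamplification, and are not bounds on the difference between the cell types. The lower members were the adhesion gene Nrcam (-1.31), the doublecortin-like kinase gene Dclk1 (-1.02) and Tubb2a (-0.73). The call of Tubb2a was lost in all leave-one-out fits but that without stem 4, and its libraries overlapped.

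Lists of later neuronal function moved less or in both directions. Of 47 tested synaptic genes, 6 were higher and 3 lower (median 0.31), and without progenitor a or d 3 were higher, while without progenitor b, c or d 1 was lower. Gria3 and Gria4, subunits of AMPA-type glutamate receptors, were higher (6.85 and 6.74), whereas Camk2a, a kinase of the postsynaptic density, was lower, with 54.35, 72.53, 44.95 and 71.08 CPM in progenitors and 180.6, 406.4, 258.5 and 326.8 CPM in stem cells (-2.30, standard error 0.29, edgeR adjusted p = 0.00156). Of 26 tested voltage-gated ion channels, 5 were higher, and 10 without stem 2, with a median of 1.08 (0.79 among members that reached 10 counts in all 8, 3 members having fewer than 10 counts in every stem cell library). They included the sodium channel genes Scn3a and Scn1a and the calcium channel genes Cacna1e and Cacna1c, of which Cacna1c was lost without progenitor c or d. Of 45 tested neurotransmitter receptor genes, 12 were higher and 4 lower. Their median was 0.76 over all tested members but -0.34 over those with at least 10 counts in all 8 libraries, 7 members having fewer than 10 counts in every stem cell library. Sstr2, a somatostatin receptor, had 35.06, 158.5, 87.88 and 149.8 CPM in progenitors and 2 counts in all stem cell libraries together, a ratio of 1612.0 (95% counting interval 446.0 to 13314.3). Such intervals cover counting error only. Gabra3 and Gabrb2, subunits of the GABA-A receptor, had no count in stem cells and were at least 146.4-fold and 98.95-fold higher, while Gabrb1 (-1.50), Gabrg1 (-2.49) and Gabra4 (-1.66), subunits of the same receptor, were lower. Grm3, a metabotropic glutamate receptor of glia, was lower as well (-1.74). The receptor genes named here were called with every library left out in turn.

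Oligodendrocyte precursor genes were among the largest differences. Cells that stained for the oligodendroglial markers O1 and O4 had been excluded by the sort. All 16 listed markers were tested, 12 were higher and all 16 had a positive log2 fold change, with a median of 5.76 (2.06 among members that reached 10 counts in all 8, 2 members having fewer than 10 counts in every stem cell library). Their summed level was 3379.8, 2974.1, 5122.5 and 4774.1 CPM in progenitors a to d and 201.6, 256.3, 277.5 and 185.4 CPM in stem cells 1 to 4. Pdgfra, the receptor for platelet-derived growth factor on these precursors, had 399.0, 390.0, 856.7 and 662.8 CPM against 0.4106, 0.2611, 5.221 and 0.1858 CPM (8.49, standard error 0.94, edgeR adjusted p = 0.00094). Cspg4, which encodes the proteoglycan NG2, had 365.0, 253.9, 564.7 and 406.6 CPM against 0.308, 1.045, 0.7459 and 3.901 CPM (8.14, standard error 0.69, edgeR adjusted p = 0.000267). Olig1, a transcription factor of the lineage, was detected in both, with 1076.0, 910.0, 1051.2 and 1237.1 CPM against 106.2, 131.3, 66.01 and 43.66 CPM (3.6, standard error 0.32, edgeR adjusted p = 0.000358). Every progenitor library exceeded every stem cell library in these genes, with progenitors c and d the highest for Pdgfra and Cspg4. Sox10 (6.83), Lhfpl3 (5.75), Matn4 (6.25), Tnr (6.11), Vcan (2.78), Gpr17 (5.77), Neu4 (5.75), C1ql1 and Bmp4 made up the other calls, and Gpr17 and Neu4 are known from precursors that have begun to differentiate. All 12 calls held with each library left out. Olig2 did not pass, at 21.85, 24.85, 21.92 and 16.65 CPM in progenitors and 1.232, 5.875, 18.03 and 11.89 CPM in stem cells, where stem 3 overlapped with progenitor d (1.17, standard error 0.75, edgeR adjusted p = 0.433).

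Markers of mature oligodendrocytes did not follow. Of 19 listed, 13 were tested, with a median of 0.08 (-0.81 among members that reached 10 counts in all 8) and 2 members higher, both under 10 counts in every stem cell library, namely Gjc3, a connexin of the oligodendrocyte lineage, and Ugt8a, an enzyme of myelin galactolipid synthesis. Gjc3 had 149.3, 131.1, 263.6 and 194.2 CPM in progenitors and 0.4106, 0.1306, 0.2486 and 0.1858 CPM in stem cells (9.40, standard error 0.45), and its edgeR adjusted p of 2.27e-05 was the lowest of all genes. The myelin genes Mbp (-1.37, edgeR adjusted p = 0.115) and Cnp (-0.64, 0.15) did not pass the test. The summed level of the list overlapped between the cell types, at 673.3 to 1043.3 CPM in progenitors and 584.1 to 1021.5 CPM in stem cells.

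Immediate early genes, which cells transcribe within minutes of a stimulus without new protein synthesis, were higher in progenitors. Of 40 listed, 27 were tested, 10 were higher, none was lower (0 with an unadjusted p under 0.05 and 0 by DESeq2) and 25 had a positive log2 fold change, with a median of 1.83 (0.88 among members that reached 10 counts in all 8, 4 members having fewer than 10 counts in every stem cell library). The sum over the list was 6304.7, 6150.7, 3946.6 and 7693.9 CPM in progenitors and 684.7, 706.9, 685.7 and 512.0 CPM in stem cells. Fos, a subunit of the AP-1 transcription factor, had 2453.9, 2236.5, 1420.2 and 2852.8 CPM against 23.2, 59.02, 13.8 and 2.601 CPM (6.48, standard error 0.80, edgeR adjusted p = 0.00153). Jun, its partner, had 842.8, 891.0, 747.3 and 1029.4 CPM against 61.69, 43.09, 78.82 and 44.59 CPM (3.91, standard error 0.24, edgeR adjusted p = 5.6e-05). Neither gene overlapped between the cell types, and the spread between progenitor libraries was small for Jun. Egr1, a zinc finger factor, had 928.6, 657.2, 341.5 and 1089.9 CPM against 0.6159, 0.6528, 0 and 0.9289 CPM (10.42, standard error 0.67, edgeR adjusted p = 5.6e-05). Egr2 had no count in stem cells and was at least 445.4-fold higher, at 30.22 to 63.32 CPM in progenitors. Nr4a1 (9.01), an orphan nuclear receptor, Ier2 (5.97), Fosb (7.70), Junb (4.39), Btg2 (2.77) and Dusp1 (2.68), a phosphatase that switches off MAP kinases, completed the calls. Of the 10, Junb was lost without progenitor d and the others were called in each leave-one-out fit. Sgk1, a serum-inducible kinase outside the list, had 36.02 to 106.1 CPM in progenitors and 1 count in stem cells, a ratio of 2311.6 (95% counting interval 414.6 to 91327.2).

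Heat shock and chaperone genes shifted by less. Of 41 tested, 8 were higher, with a median of 0.58 (0.51 among members that reached 10 counts in all 8, 1 member having fewer than 10 counts in every stem cell library), none was lower (2 with an unadjusted p under 0.05 and 0 by DESeq2), and 4 were higher without progenitor a, c or d and 3 without progenitor b. Hsp90ab1, the constitutive cytosolic HSP90, had 1052.3, 1129.0, 1143.1 and 1157.0 CPM in progenitors and 478.5, 581.4, 536.2 and 383.1 CPM in stem cells (1.15, standard error 0.15, edgeR adjusted p = 0.00205). Hspa1a, the inducible HSP70, had 11.41 to 45.75 CPM against 0 to 0.5223 CPM (6.95, standard error 1.25, edgeR adjusted p = 0.00812). Cct6a, a subunit of the cytosolic chaperonin, was also called in each leave-one-out fit (0.98). Among 28 tested genes of the unfolded protein response, none was higher (5 with an unadjusted p under 0.05 and 3 by DESeq2) and Dnajb9 was lower (-1.07), a call lost whichever library was left out. Of 27 tested apoptosis genes, Bbc3 was called higher, with 171 counts in progenitors and 2 in stem cells (ratio 53.43, 95% counting interval 14.57 to 444.8), but not without progenitor c or d or stem 1 or 3, and the median of the list was -0.08.

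**Figure D3:**
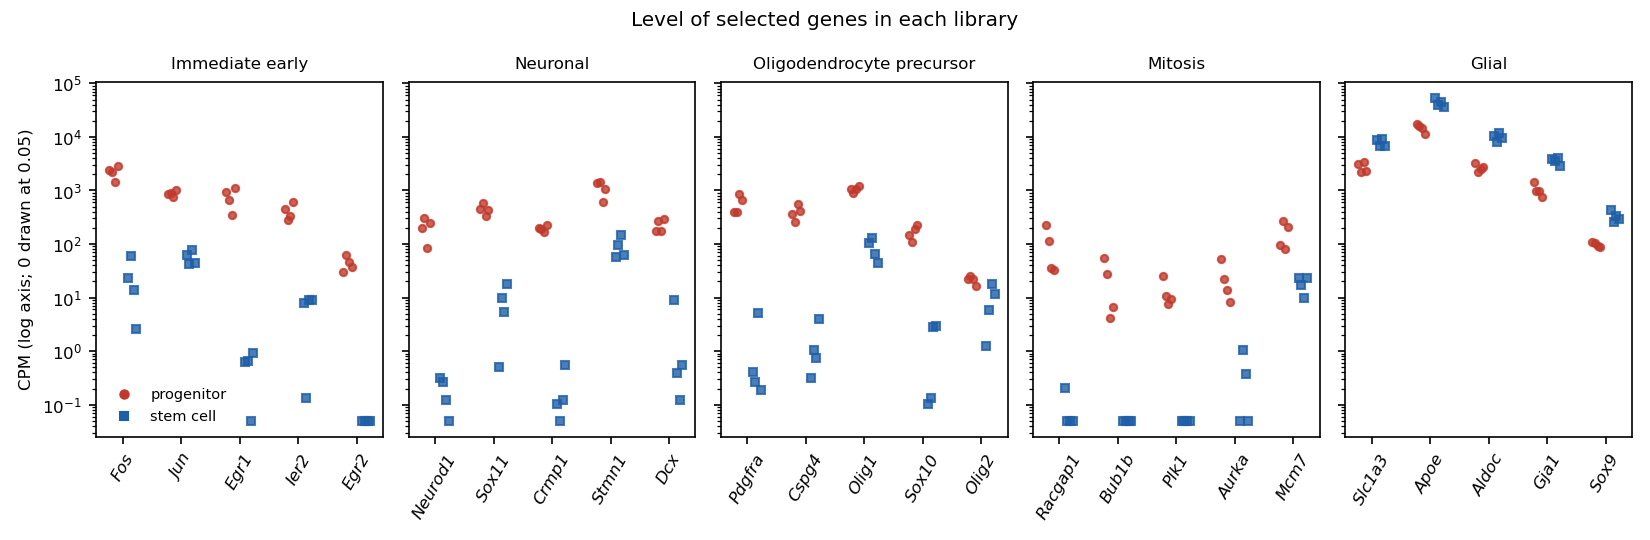
Level of 25 genes in each of the 4 progenitor (red circles) and 4 stem cell (blue squares) libraries, in CPM on a log axis, with a value of 0 drawn at 0.05. Neuronal, immediate early and oligodendrocyte precursor genes did not overlap between the cell types except Olig2, the genes of the mitosis panel (with Mcm7, a replication gene) were highest in progenitors a or b, and the glial genes were abundant in both cell types and lower in progenitors.

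Few DNA replication genes passed the test, and levels of replication and mitosis genes varied among the progenitor libraries. Of 51 listed DNA replication genes, 41 were tested and 2 were called higher (4.88%, beside 4.95% of all genes), Mcm7 and Mcm4, subunits of the replicative helicase. Of the 41, 36 had a positive log2 fold change, with a median of 1.34 (1.12 among members that reached 10 counts in all 8) that ranged from 0.59 to 1.66 with 1 library left out, and 1 was called without progenitor a, b or d and 5 without progenitor c. Mcm7 had 95.42, 271.0, 81.49 and 211.6 CPM in progenitors and 22.79, 16.84, 9.821 and 22.85 CPM in stem cells (3.16, standard error 0.47, edgeR adjusted p = 0.00339). Mcm4 had 41.56, 143.8, 52.53 and 21.29 CPM against 0 to 7.803 CPM (4.35), and its call held without stem 1 or stem 4 but not without any other library. The summed level of the list was 3992.4 CPM in progenitor b and 1075.5 to 1293.2 CPM in the other progenitors, against 699.5 to 831.4 CPM in stem cells.

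Of 56 mitosis genes, 29 were tested and 4 were higher (13.8%, beside 4.95% of all genes), namely Racgap1, Plk1, Bub1b and Aurka, the last not without progenitor a. None was lower (2 with an unadjusted p under 0.05 and 2 by DESeq2). The median was 2.51 (0.78 among members that reached 10 counts in all 8, 5 members having fewer than 10 counts in every stem cell library). Of the 56, 15 had no count in any stem cell library. Racgap1, a protein of the cytokinetic midzone, had 225.2, 114.9, 36.08 and 32.62 CPM in progenitors and 2 counts in stem cells, a ratio of 1700.4 (95% counting interval 470.5 to 14044.4). Plk1, a kinase of mitotic entry, had 24.89, 10.76, 7.582 and 9.271 CPM and no count in stem cells, and was at least 142.3-fold higher. The spindle checkpoint kinase gene Bub1b had 55.39, 26.97, 4.111 and 6.61 CPM and also no count in stem cells, at least 261.2-fold higher. Progenitors a and b were the highest in all 3 genes. The summed level was 2579.9, 1587.7, 505.3 and 548.8 CPM in progenitors a to d and 413 to 559.2 CPM in stem cells, so that progenitors c and d overlapped with the stem cells. The proliferation genes Mki67 and Top2a did not reach 10 counts in 4 libraries and were not tested, with 1129 and 1737 counts in progenitors and none in stem cells.

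Among 30 tested G1 cyclins and cell cycle inhibitors, 7 were higher (23.3%, beside 4.95% of all genes). The median was 0.67 (0.24 among members that reached 10 counts in all 8, with 2 members under 10 counts in every stem cell library). Ccnd1, cyclin D1, had 111.7, 92.08, 162.7 and 106.8 CPM in progenitors and 4.722, 0.1306, 0.2486 and 4.459 CPM in stem cells (5.60, standard error 0.93, edgeR adjusted p = 0.00595). Its kinase Cdk4 was also higher (1.07). Mycn, a MYC family factor of dividing progenitors, and Cdkn1c, an inhibitor of cyclin-dependent kinases, had no count in stem cells and were at least 306.8-fold and 96.65-fold higher. The inhibitor genes Cdkn1a (1.06, edgeR adjusted p = 0.786) and Cdkn1b (-0.05, 0.966) did not pass the test.

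The promoters of these 2 groups were read from RefSeq (GRCm38.p6, 250 bases before to 50 bases after the start), of which 10250 belonged to tested genes, 518 of them called higher and 425 lower. The cAMP response element (CRE), searched as TGACGTCA, the AP-1 site, searched as TGANTCA, and the CCAAT box bound by NF-Y, searched as CCAAT, were counted on both strands, and TGACGTCA holds no TGANTCA. CRE was present in 3.4% of all these promoters, in 4.05% of genes called higher and in 3 of 22 immediate early genes (13.6%), namely Btg2, Dusp1 and Ppp1r15a. AP-1 was present in 4.42% of all and in none of the 22. CCAAT was present in 38.9% of all, 41.5% of genes called higher, 41.2% of genes called lower and 17 of 25 mitosis genes (68.0%). Further motifs were searched, of which the SOX motif ACAAAG was present in 13.3% of all and 4 of the 22 immediate early genes (18.2%). In the 150 bases before the start alone, CRE was present in 2.61% of all and 2 of the 22 (9.09%). CCAAT was present there in 28.4% of all and 16 of the 25 mitosis genes (64.0%). A match is a description of these letters and not a site of binding. Variants of the motifs with other letters were not searched, so a promoter without a match can still hold one. The 200 bases before the start are shown for genes of both groups on the strand of the gene, with CRE and CCAAT in capitals (ATTGG on the opposite strand). Btg2 holds CRE and a pair of CCAAT boxes, Jun a CCAAT box and Fos neither of these exact strings in this window. Racgap1 and Plk1 hold CCAAT at -12 and -14 from the start.
Fos, chr12:85473690-85473889, forward strand: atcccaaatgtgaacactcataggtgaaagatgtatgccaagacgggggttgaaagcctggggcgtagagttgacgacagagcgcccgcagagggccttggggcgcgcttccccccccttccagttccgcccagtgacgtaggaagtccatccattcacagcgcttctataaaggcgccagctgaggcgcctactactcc
Jun, chr4:95052223-95052422, reverse strand: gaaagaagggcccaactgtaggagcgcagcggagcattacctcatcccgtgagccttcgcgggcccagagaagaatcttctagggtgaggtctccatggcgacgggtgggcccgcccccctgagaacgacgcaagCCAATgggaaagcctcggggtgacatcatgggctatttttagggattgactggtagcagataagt
Btg2, chr1:134079156-134079355, reverse strand: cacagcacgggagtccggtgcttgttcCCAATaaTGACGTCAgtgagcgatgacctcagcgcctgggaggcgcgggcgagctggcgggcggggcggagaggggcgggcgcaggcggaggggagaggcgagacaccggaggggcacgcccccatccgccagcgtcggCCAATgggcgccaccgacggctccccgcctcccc
Racgap1, chr15:99651657-99651856, reverse strand: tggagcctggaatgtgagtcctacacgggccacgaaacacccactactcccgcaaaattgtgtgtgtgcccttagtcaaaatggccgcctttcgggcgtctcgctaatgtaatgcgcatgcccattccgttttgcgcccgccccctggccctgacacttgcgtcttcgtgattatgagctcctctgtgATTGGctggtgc
Plk1, chr7:122159235-122159434, forward strand: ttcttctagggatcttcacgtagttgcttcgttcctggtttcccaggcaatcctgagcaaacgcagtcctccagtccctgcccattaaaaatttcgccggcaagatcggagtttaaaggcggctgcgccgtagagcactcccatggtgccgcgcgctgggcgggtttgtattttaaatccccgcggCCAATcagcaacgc

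Most genes of astrocytes and many of radial glia were lower in progenitors. Of 52 listed genes of astrocyte transport and metabolism, all were tested, all had a negative log2 fold change and 44 were lower, with a median of -1.43. Of 37 tested radial glia-like stem cell genes, 17 were lower and 1, Tfap2c, was higher, with a median of -1.24. These lists share members and together held 57 of the 564 lower calls. Aldoc, the brain aldolase of astroglia, had 3228.5, 2171.9, 2546.7 and 2774.1 CPM in progenitors and 10489.0, 8154.2, 12086.4 and 9378.4 CPM in stem cells (-1.93, standard error 0.17, edgeR adjusted p = 0.000267). Apoe, the lipid carrier secreted by astroglia, had 17312.2, 16014.6, 14451.6 and 11358.7 CPM against 54199.7, 40244.2, 44603.5 and 36254.1 CPM (-1.59, standard error 0.16, edgeR adjusted p = 0.000647). In both, every progenitor library was below every stem cell library, yet levels in progenitors remained high. Slc1a2, the glutamate transporter GLT-1 (-1.63), Glul, glutamine synthetase (-1.54), Aqp4, the water channel of astrocyte endfeet (-1.44), and the connexin genes Gja1 (-1.83) and Gjb6 (-1.71) were lower as well. So were the sodium pump subunit gene Atp1b2 (-1.54), the cystatin gene Cst3 (-1.85) and the metallothionein genes Mt1 (-1.40), Mt2 (-1.43) and Mt3 (-1.87). Prom1, which encodes the stem cell surface protein prominin, had 8.021, 9.208, 10.69 and 11.16 CPM in progenitors and 48.86, 49.35, 91.13 and 54.06 CPM in stem cells (-2.67, standard error 0.37, edgeR adjusted p = 0.00268). Egfr (-1.69) and Thrsp (-1.40) were lower, and Tfap2c, a factor of intermediate progenitors, had no count in stem cells and was at least 50.62-fold higher. All genes named here were called with each library left out.

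The largest log2 fold changes among well measured lower genes lay outside these lists in part. Agt, the angiotensin precursor made by astrocytes, had 201.6, 213.9, 88.98 and 75.2 CPM in progenitors and 1121.5, 1028.2, 880.4 and 1114.3 CPM in stem cells (-2.87, standard error 0.35, edgeR adjusted p = 0.00148). Ddn, which encodes dendrin, a protein of dendrites, was lower at -2.83. Adhfe1, a mitochondrial dehydrogenase, had 48.96, 64.7, 60.38 and 46.95 CPM against 373.3, 302.5, 363.8 and 261.4 CPM (-2.58, standard error 0.21, edgeR adjusted p = 0.000247). Lrig1, an inhibitor of EGF receptor signalling, was lower (-3.18), but not without progenitor c or d or stem 2, 3 or 4. Gm43290, the gene present in stem cells and at the floor in progenitors, had 1.95, 8.748, 7.086 and 2.601 CPM in stem cells and 1 count in progenitors, a ratio of 251.2 (95% counting interval 44.44 to 9985.5).

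Among genes of energy and lipid metabolism, nearly all calls were lower in progenitors. Of 78 nuclear-encoded oxidative phosphorylation genes, 76 had a negative log2 fold change (median -0.60). Without overlap below the stem cells were 31 of the 78, beside 1179 of all 15427 genes tested. The test called 13 lower (16.7%, beside 3.66% of all genes) and none higher (0 with an unadjusted p under 0.05 and 0 by DESeq2). The call count depended on single libraries, since it was 7, 3, 3 and 2 without progenitor a, b, c and d and 8 without stem 4. The summed level was 10969.1 to 12502.2 CPM in progenitors and 16349.2 to 17696.0 CPM in stem cells. Ndufc2, a subunit of complex I, had 255.4, 237.7, 249.2 and 216.2 CPM against 580.9, 394.2, 443.6 and 634.8 CPM (-1.13, standard error 0.19, edgeR adjusted p = 0.00641). Ndufb10, another, had 145.9, 128.5, 125.9 and 110.4 CPM against 223.6, 221.3, 210.8 and 249.9 CPM (-0.86, standard error 0.17, edgeR adjusted p = 0.012). Both kept their call with each library left out, the only 2 of the 13 that did. The 76 mitochondrial ribosomal protein genes did not share the shift, with a median of -0.05 and no call at the adjusted threshold, 3 with an unadjusted p under 0.05 and 0 called by DESeq2. Reads on mitochondrial DNA had been removed before counting, so transcripts of the mitochondrial genome were not analysed here.

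Of 31 tested glycolysis and lactate genes, 11 were lower and 1 higher (median -0.65), and without progenitor b, c or d 5, 7 and 5 were lower. The summed level was 8807.8 to 11236.0 CPM in progenitors and 18888.0 to 28188.5 CPM in stem cells. Pfkm, a phosphofructokinase at the committed step of glycolysis, had 206.5, 240.0, 233.5 and 194.8 CPM against 665.6, 620.1, 680.2 and 466.1 CPM (-1.50, standard error 0.17, edgeR adjusted p = 0.00103). Aldoa (-1.07), Gapdh (-1.01) and the lactate dehydrogenase gene Ldhb (-1.32) were lower in each fit. Slc2a1, the glucose transporter GLUT1 of glia, was lower (-1.65, but not without progenitor b or d), whereas Slc2a3, the neuronal glucose transporter GLUT3, was higher, with 865 counts in progenitors and 9 in stem cells (5.81, edgeR adjusted p = 0.0375), a call that held only without stem 2.

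Of 53 tested genes of fatty acid oxidation and synthesis, 15 were lower and none higher (0 with an unadjusted p under 0.05 and 0 by DESeq2), with a median of -0.78, and 11 were lower in each leave-one-out fit. Acsl3, an acyl-CoA synthetase, had 496.3, 388.1, 438.5 and 272.0 CPM in progenitors and 1277.1, 1462.6, 1583.1 and 1501.0 CPM in stem cells (-1.90, standard error 0.20, edgeR adjusted p = 0.000722), and its relative Acsl6 was at -1.67. Genes of both arms were among the calls, with the desaturase genes Scd2 (-0.99) and Fads2 (-1.37) and the lipogenic regulator gene Srebf1 (-1.33) on the side of synthesis and Acadl (-1.57), Hadhb (-1.17) and Eci1 (-1.54) on that of oxidation. Of 38 cholesterol genes, 9 were lower and 1 higher (median -0.73), and 4, 3 and 4 were lower without progenitor b, c and d and 5 without stem 3. Msmo1, a sterol oxidase, had 349.3, 315.8, 302.9 and 238.1 CPM against 877.6, 898.0, 1377.8 and 825.1 CPM (-1.75, standard error 0.21, edgeR adjusted p = 0.00126), and Idi1 (-1.82) also kept its call. The higher gene, the sterol exporter Abcg1 (5.54), was called only without stem 1 or stem 2. Of 55 lysosome and autophagy genes, 11 were lower and none higher (2 with an unadjusted p under 0.05 and 2 by DESeq2), with a median of -0.28 and 5 to 7 lower calls without progenitor a, b, c or d or stem 1 or 3. Cd63 (-0.81), Lamp1 (-1.54), membrane proteins of late endosomes and lysosomes, and the cathepsin genes Ctsz (-1.24) and Ctsf (-0.94) were among the 5 called in each fit.

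Of 81 cytosolic ribosomal protein genes, 63 had a positive log2 fold change (median 0.41). Without overlap, 27 lay above the stem cells and none below, beside 1806 above and 1179 below of all 15427 genes tested. The test called 7 higher (8.64%, beside 4.95% of all genes), with 4, 2 and 2 calls without progenitor a, b and d. Their summed level was 10804.1 to 14326.5 CPM in progenitors and 7578.9 to 9597.8 CPM in stem cells. Rplp0, a protein of the ribosomal stalk, had 432.5, 522.3, 385.4 and 497.3 CPM against 238.8, 244.2, 206.4 and 231.1 CPM (0.97, standard error 0.16, edgeR adjusted p = 0.0055), and Rpl13 was at 1.11. Ribosomal protein genes have many processed copies in the genome, which leaves their counts uncertain. Of 46 translation factor genes, 3 were called higher (6.52%), and 1 without progenitor b or d, with a median of 0.24. Eef1a1, the elongation factor that brings tRNA to the ribosome, had 1749.4, 1904.2, 1413.4 and 1868.0 CPM against 882.7, 806.4, 808.7 and 745.7 CPM (1.07, standard error 0.14, edgeR adjusted p = 0.00186). Of 50 ribosome biogenesis genes, 42 had a positive log2 fold change (median 0.71) and 2 were called (4.0%, and none without progenitor a, b or d), Ebna1bp2 (only without progenitor c or stem 3 or 4, among the leave-one-out fits) and Rrp1 (only without stem 2). The proteasome showed no call in 38 genes (median 0.16), 3 higher and 1 lower with an unadjusted p under 0.05, and 1 called by DESeq2.

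**Figure D4:**
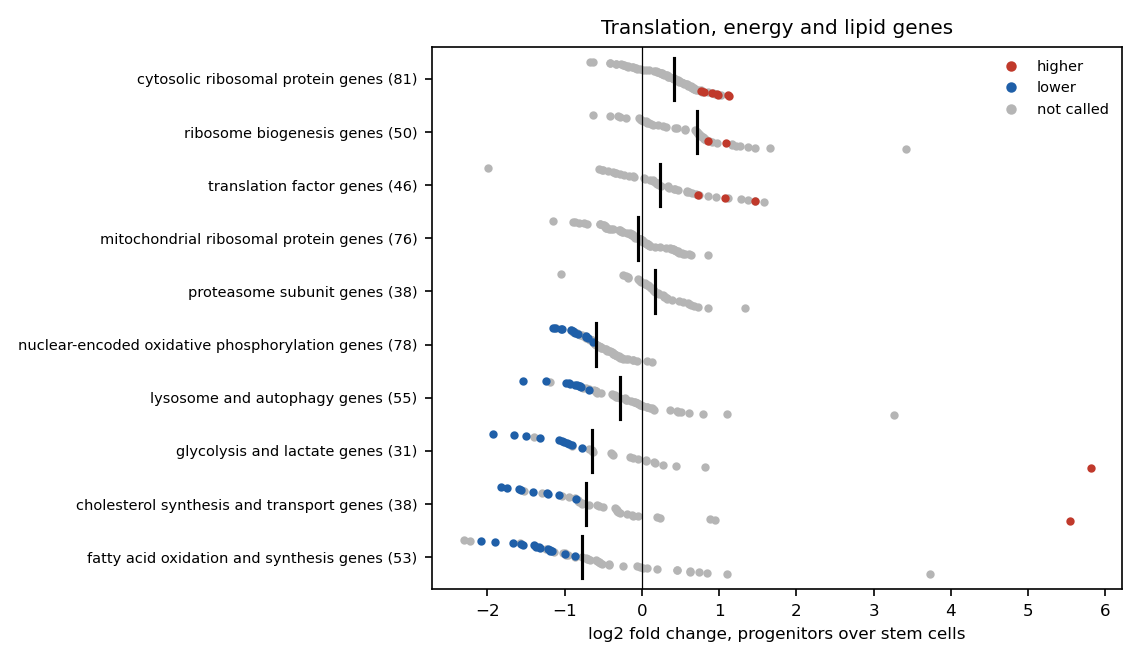
Log2 fold change of progenitors over stem cells for each tested member of 10 lists of translation, energy and lipid genes (number tested in parentheses), with called members in red (higher) or blue (lower), other members in grey, each list spread vertically by rank, and the median as a black bar. Medians run from 0.71 for ribosome biogenesis to -0.78 for fatty acid genes, and the calls of each list lie almost all on 1 side of 0.

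Signalling pathways showed a few genes each. In the Notch pathway (32 tested, 3 higher, all of them under 10 counts in every stem cell library, and 1 lower, median 0.16 over all and -0.14 over members that reached 10 counts in all 8), the ligand genes Dll1 and Dll3 had no count in stem cells and were at least 220.0-fold and 76.24-fold higher in progenitors, and Mfng, a glycosyltransferase acting on Notch, had 1310 counts against 1 (ratio 818.6, 95% counting interval 146.7 to 32359.2). The receptor gene Notch2 was lower (-1.10, with a call that held only without stem 1 or 4), and Hes5, a target of the pathway, did not pass the test, at 180.2 ± 90.52 CPM in progenitors and 156.2 ± 61.03 CPM in stem cells (SD, n = 4 each; log2 fold change 0.18, edgeR adjusted p = 0.851). In the Wnt pathway (36 tested, 3 lower, none higher, 1 with an unadjusted p under 0.05 and 0 by DESeq2, median -0.59), Lgr4, a receptor for R-spondins, had 60.85, 64.21, 33.8 and 25.24 CPM against 233.3, 178.6, 152.2 and 116.1 CPM (-1.91, standard error 0.35, edgeR adjusted p = 0.00898), and the receptor gene Fzd2 was lower (-1.98). In the BMP and TGF-beta pathways, 31 genes were tested, 1 was higher (3.23%) and 2 were lower (6.45%), with a median of -0.18, and 1 was lower without progenitor a, b or d or stem 1 or 3. Bmp4 had 1.452, 4.971, 13.15 and 35.97 CPM in progenitors and no count in stem cells, at least 134.4-fold higher, while its receptor Bmpr1b was lower (-1.29). The Hedgehog effector gene Gli3 was lower (-1.83), and of the 34 tested genes of the Hedgehog and cilium list, Ptch1 was the other one called (-1.32, held only without stem 2 or 4).

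Growth factor receptors and the ERK pathway moved in both directions, with 6 higher and 7 lower of 43 tested, 4 lower without progenitor c or d, and a median of -0.30 (-0.36 among members that reached 10 counts in all 8, 2 members having fewer than 10 counts in every stem cell library). The receptor gene Fgfr3 had 78.21, 50.28, 58.1 and 98.72 CPM in progenitors and 180.7, 243.5, 326.2 and 190.2 CPM in stem cells (-1.75, standard error 0.28, edgeR adjusted p = 0.00502), and Hbegf, a ligand of the EGF receptor, was lower (-1.44). Nrg1, a ligand of the related ERBB receptors, and Spry1, an inhibitor of ERK signalling, had no count in stem cells and were at least 232.7-fold and 188.5-fold higher. Spry4, another inhibitor, was higher at 2.26. Of 56 extracellular matrix and integrin genes, 9 were higher, 5 without progenitor d, and 7 were lower, 4 without progenitor b or d, with a median of -0.37 (-0.64 among members that reached 10 counts in all 8, 5 members having fewer than 10 counts in every stem cell library). The laminin gene Lamb1 had 1073 counts against 2 (ratio 335.3, 95% counting interval 92.59 to 2772.0), whereas Sparcl1 (-1.58), the syndecan gene Sdc4 (-1.42) and the glypican gene Gpc5 (-1.42) were lower. Among 73 splicing factors, 2 were higher (2.74%) and 1 was lower (1.37%), and among 99 chromatin regulators 1 was higher (1.01%). These shares lay below the 4.95% higher and 3.66% lower over all genes. The calls included Hnrnpa1 (2.02) and Qk (-1.20), an RNA-binding protein of glia.

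Gene biotypes differed by less. Protein coding genes took 92.0% ± 0.609 of the counts in progenitors and 89.0% ± 2.04 in stem cells (SD, n = 4 each), and long noncoding RNA genes 4.42% ± 0.353 and 6.32% ± 1.18, both without overlap (2-sided exact permutation test, p = 0.0286, the smallest that 4 against 4 libraries allow, and 0.0357 adjusted over 5 biotypes). As shares of the genes with at least 10 counts, the order was the reverse, with protein coding genes at 76.9% and 79.7%. Of 1561 tested long noncoding RNA genes, 56 (3.59%) were higher and 32 (2.05%) were lower in progenitors, beside 4.95% and 3.66% of all genes. Malat1, a nuclear RNA of this class, had 15617.2, 15348.4, 16114.9 and 11406.6 CPM in progenitors and 30978.5, 44165.9, 29505.7 and 41015.0 CPM in stem cells (-1.34, standard error 0.17, edgeR adjusted p = 0.00156). A large part of the counts of the class therefore came from this gene, and the share of the class without Malat1 was not tested.

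Markers of other cells that the gates could hold were examined beside these results. Of 20 microglia and macrophage markers, 5 were tested and none was called (1 lower with an unadjusted p under 0.05 and 1 by DESeq2), with summed levels of 54.34 to 66.98 CPM in progenitors and 82.52 to 165.3 CPM in stem cells, and Aif1 and Ptprc had no count in any library. Of 19 endothelial markers, 4 were tested and none was called (1 lower with an unadjusted p under 0.05 and 0 by DESeq2), with sums of 398.7 to 661.3 CPM against 521.7 to 802.2 CPM in stem cells, most of it from Bsg, and Cldn5 had no count in progenitors and 282 in stem cells. Mural cell markers separated the progenitor libraries from each other, with sums of 3577.0, 87.28, 2582.9 and 1100.1 CPM in progenitors a to d and 140.5 to 236.3 CPM in stem cells. Vtn, a marker of pericytes, had 952.3, 1.222, 1499.9 and 780.6 CPM in progenitors and 0.8212 to 1.306 CPM in stem cells (9.59, standard error 1.64, edgeR adjusted p = 0.00659), and was the only one of 10 tested members called. The median over the 10 was 3.19 (1.21 among members that reached 10 counts in all 8). Progenitor b lay within the stem cells for Vtn and below them for the sum, and the part of the mural transcripts, like that of the oligodendrocyte precursor transcripts, in the other differences was not tested. Ependymal markers reached 231.6 CPM in progenitor a and 14.08 to 24.85 CPM in the other progenitors, against 11.1 to 15.66 CPM in stem cells.

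Neuronal subtype markers were sparse. Of 16 mature granule neuron markers, 10 were tested and 1 was higher, C1ql2 (5.51). Of the 10, 7 had a positive log2 fold change, with a median of 1.99 (-0.47 among members that reached 10 counts in all 8). The summed level was 171.7 to 244.1 CPM in progenitors and 74.31 to 134.5 CPM in stem cells. Calb1, a marker of mature granule cells, had 1 count in progenitors and 252 in stem cells and was not tested. Calb2, calretinin, which marks both immature granule cells and a class of interneurons, had 333.3, 285.9, 406.4 and 326.0 CPM in progenitors and 9.649, 0.2611, 13.92 and 5.202 CPM in stem cells (5.50, standard error 0.77, edgeR adjusted p = 0.00273). Of the 8 tested interneuron markers, 2 were higher and 1 was lower, with a median of 0.98 (0.63 among members that reached 10 counts in all 8). The lower call held with each library left out, whereas the higher call of Cnr1 (2.94) held only without progenitor b or stem 2 or 3. The summed level of the list overlapped, at 978.0 to 1157.1 CPM in progenitors and 1038.8 to 1303.5 CPM in stem cells. Gad1, which makes GABA, did not pass the test (3.86, edgeR adjusted p = 0.137).

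**Figure D5:**
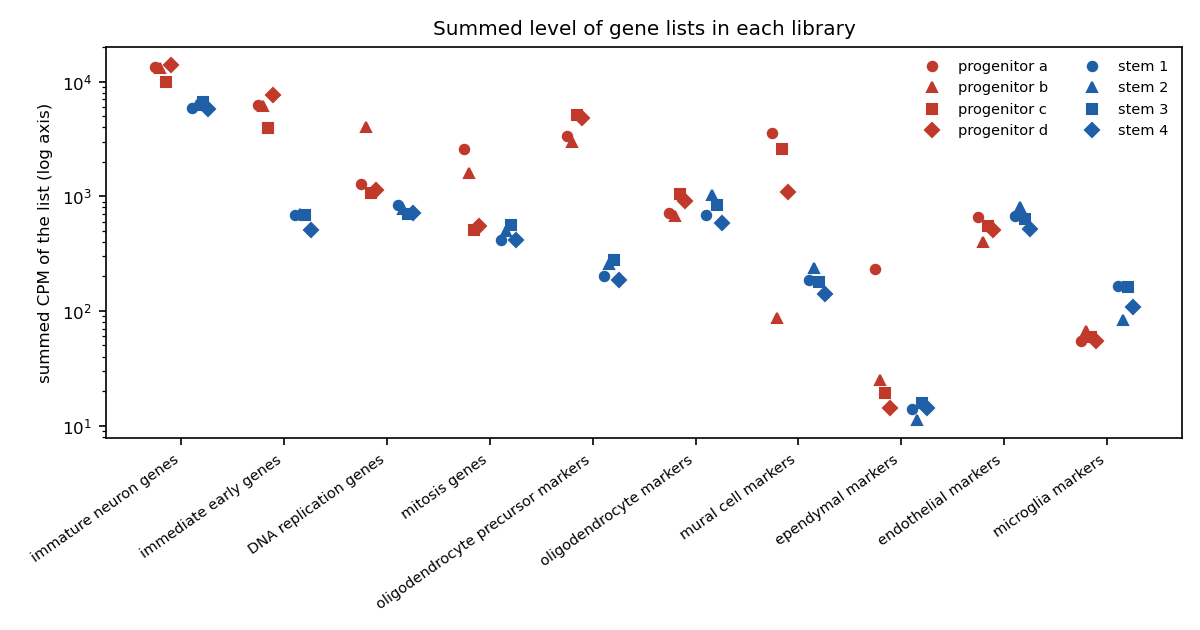
Summed CPM of 10 gene lists in each library, on a log axis, with progenitors a to d in red and stem cells 1 to 4 in blue, and a symbol for each library within a colour. Immature neuron, immediate early and oligodendrocyte precursor sums were higher in all 4 progenitor libraries, mitosis sums in progenitors a and b, mural cell sums in all progenitors but b, and the ependymal sum was high in progenitor a.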

How the data were processed

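RNA sequencing libraries of 50 sorted cells were made by SMARTer v4 preamplification and Nextera XT. According to the study's methods, the authors discarded reads from PhiX, rRNA and the mitochondrial genome, mapped the rest with HISAT2 and counted them with featureCounts without regard to strand against GENCODE M14, and deposited 1 table of raw counts per gene. Overlapping and antisense genes can therefore not be told apart, and without molecular identifiers counts are not independent molecules. Of the 50600 identifiers, 50376 matched GENCODE M21 (GRCm38), used for names. Genes that reached 10 counts in 4 or more of the 8 libraries were tested with edgeR 4.0.16 (TMM, quasi-likelihood, cell type as the only term, Benjamini-Hochberg adjustment, threshold 0.05) in R 4.3.3. The standard error was taken as the size of the log2 change over the root of F, and the common biological coefficient of variation was 0.778. Scripts were tested on simulated data. Alternatives were DESeq2 1.42.0, its size factors in edgeR, other count filters, thinned counts, robust estimation, a fit over all 12 libraries and each library left out. The astrocyte libraries entered that fit and the scaling alone. Named genes were the 12 called protein coding genes of lowest p in each direction with at least 20 CPM and no overlap, the 5 largest log2 fold changes in each direction among genes that reached 10 counts in all 8, 2 called genes per list and direction (or the most abundant member), the 3 most abundant genes present in 1 cell type and at the floor in the other, and the genes of the sort. The comparison and the lists were chosen with earlier results of these data known. Depth was 9041498 to 12535028 counts in progenitors and 5031166 to 10435711 in stem cells. Some genes that this rule names are not reported here.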

Additional observations from a re-analysis of the deposited data

Results flagged for a closer look

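Among the genes named by rule, single libraries stood far from the other 3 of their cell type in 12 of 210 groups of 4 libraries, by Dixon's test of the gap to the nearest library over the range, at its 95% critical value. Chance flags about 1 in 20 groups. In progenitors, Hist1h2ap, a replication-dependent histone gene, was at 331.6 CPM in library b against 16.48 to 47.5 CPM in the others, Gm11681 at 11.88 CPM in c against 3.341 to 4.635 CPM, and Scn3a at 20.33 CPM in a against 46.61 to 51.68 CPM. Progenitor d stood apart for Hspa1a (45.75 CPM against 11.41 to 15.77 CPM), H2-T23 (34.25 CPM against 21.84 to 23.93 CPM) and Malat1 (11406.6 CPM against 15348.4 to 16114.9 CPM). In stem cells, library 2 stood apart for Ddn (227.2 CPM against 118.8 to 127.6 CPM), Gria3 (3.525 CPM against 0 to 0.5574 CPM) and Abcg1 (9.009 CPM against 0 to 0.1243 CPM). Library 3 did so for Pdgfra (5.221 CPM against 0.1858 to 0.4106 CPM) and Msmo1 (1377.8 CPM against 825.1 to 898.0 CPM), and library 4 for C1ql2 (3.716 CPM against 0.1243 to 0.4106 CPM).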

How the results depend on the processing

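Higher and lower calls numbered 763 and 564. DESeq2 called 1362 and 1032, sharing 761 and 564 of them, a single fit of all 12 libraries 288 and 157, and the filter of at least 10 counts in every library 470 and 597. With 1 library left out, 532 to 876 genes were higher and 298 to 510 lower. The 1 gene present in stem cells alone became 0 with a minimum of 20 counts and 0 after thinning. As shares of genes with at least 10 counts in place of shares of counts, the difference of progenitors and stem cells was reversed for protein coding genes (-2.87 percentage points), long noncoding RNA genes (1.23) and genes of the TEC biotype (0.799), and the cause was not tested. The log2 fold change of Tekt1, a ciliary gene without a call, was 0.08 and ran from -0.13 to 0.29 with 1 library left out, at -0.09 and -0.02 without stem 2 and stem 4. Of 120 named genes tested, 120 kept call and direction with DESeq2 and 72 in the fit of all 12 libraries, where 48 lost the call. No paired analysis was possible because the progenitor columns carry no replicate number.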
